A study of Mus musculus with 28 samples.

Results

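The genes described here are 35 genes of mitosis, taken as a fixed list of symbols and matched to Ensembl gene IDs among the 43430 genes of the deposited count tables. All 35 were present and all 35 passed the filter on low counts in every comparison. RNA was measured in Treg cells (regulatory T cells, sorted as CD4+ YFP-Foxp3+ CD25+) of C57BL/6NJ mice, in 28 libraries. RISP, the Rieske protein of complex III in the respiratory chain, is encoded by Uqcrfs1. RISP_WT and RISP_KO cells came from 3-week-old mice (n = 4 libraries each), and RISP_Chimera_WT and RISP_Chimera_KO cells from chimeras aged 8 to 12 weeks (n = 4 each). The in vitro groups held RISP wild-type cells of 3-week-old mice (n = 3 each) that were untreated or exposed to 1 µM piericidin (group Piericidin), which blocks complex I, to 500 µM 3-nitropropionic acid (group 3-NPA), which blocks complex II, or to 1 µM antimycin A (group AntimycinA), which blocks complex III. The labels give neither the exposure time, nor the makeup of the chimeras, nor the allele or Cre driver behind the knockout, and they do not say whether each replicate is its own mouse. The p-values therefore reflect spread among libraries, and this spread may be technical.

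Mitosis begins when cyclin A and cyclin B activate the kinase Cdk1, while the transcription factor Foxm1 helps to switch on the late genes of the cell cycle. Polo-like and Aurora kinases then build the spindle, kinetochores tie chromosomes to microtubules, and the spindle checkpoint holds back the anaphase-promoting complex until every chromosome is attached. Once released, that complex marks cyclins for destruction, and central spindle and contractile ring proteins split the cell. Transcripts of these genes are scarce in resting lymphocytes and accumulate in late S phase, G2 and M, so in a bulk sample their level follows the share of cells in those phases. Fewer such cells and less RNA per cell cannot be told apart in these libraries.

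Many promoters of this class carry a CCAAT box, bound by NF-Y, close to a CHR element (cell cycle genes homology region), which is read by DREAM and related MuvB complexes. The promoter stretches below are shown because they hold both motifs in the short window before the start of genes that are named with values below. Each is the 100 bases before a RefSeq start in GRCm38.p6, 5′ to 3′ on the strand of the gene, and capitals mark the CHR letters (TTTGAA, or TTCAAA on the other strand) and the CCAAT letters (CCAAT, or ATTGG on the other strand). They lie at chr2:164769829-164769928 (plus strand, Ube2c), chr4:118437344-118437443 (minus, Cdc20), chr7:80294376-80294475 (plus, Prc1), chr10:69352913-69353012 (minus, Cdk1), chr11:99024190-99024289 (minus, Top2a) and chr19:37376282-37376381 (plus, Kif11).
Ube2c: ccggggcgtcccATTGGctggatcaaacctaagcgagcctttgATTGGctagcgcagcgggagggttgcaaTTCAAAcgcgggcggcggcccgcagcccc
Cdc20: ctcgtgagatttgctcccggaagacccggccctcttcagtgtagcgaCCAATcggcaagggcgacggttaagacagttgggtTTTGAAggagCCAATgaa
Prc1: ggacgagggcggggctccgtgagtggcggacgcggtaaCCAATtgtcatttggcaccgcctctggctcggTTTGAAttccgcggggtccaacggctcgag
Cdk1: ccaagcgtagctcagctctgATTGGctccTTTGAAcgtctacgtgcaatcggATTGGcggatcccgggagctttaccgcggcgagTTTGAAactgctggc
Top2a: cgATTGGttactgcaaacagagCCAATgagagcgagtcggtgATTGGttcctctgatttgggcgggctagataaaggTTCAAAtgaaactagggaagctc
Kif11: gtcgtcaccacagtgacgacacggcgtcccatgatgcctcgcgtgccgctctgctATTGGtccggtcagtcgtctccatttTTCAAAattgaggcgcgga

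RefSeq promoters (250 bases before to 50 after the start) were found for 29 of the 35 genes, as 31 promoters. Ccna2, Foxm1, Pbk, Aurkb, Tpx2 and Kif20a had no entry. The CHR letters stood in 24 of the 31 promoters (77.4%), against 17.9% of all 32851 promoters of the same length, and the CCAAT letters in 24 of 31 (77.4%), against 37.4%. Both stood in 67.7% of the members' promoters and 6.95% of all, 2 or more CCAAT boxes in 54.8% and 11.7%, and the letters of the motifs overlapped in 1 member promoter. Within the 250 bases before the start alone, CHR letters were found in 35.5% of the members' promoters against 16% of all, and CCAAT letters in 77.4% against 33.8%, so many of the CHR matches lie in, or reach into, the first 50 bases after the start. Nuf2, Nusap1, Mad2l1 and Birc5 held neither motif in the window. The median log2 fold change with antimycin A was -1.99 in the 22 genes with CHR letters and -2.06 in the 7 without. A match of letters describes the window and shows no binding.

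Depth differed between the tables: 28.4 to 50.8 M counts per library in 3-week-old mice, 20.4 to 31.0 M in chimeras and 2.71 to 3.45 M in vitro. The labels' protocols give a Takara SMART-Seq v4 kit for RISP_WT and RISP_KO and a NEBNext kit for the other groups, and the tables were normalized separately, so levels set across tables are descriptive. Treg markers (Foxp3, Il2ra, Ctla4, Ikzf2, Tnfrsf18, Cd4 and Cd3e) were detected in all 8 groups. Uqcrfs1 itself read 5.19 to 7.27 CPM (the depth-scaled read count, with library sizes adjusted by TMM) in RISP_KO against 151 to 189 CPM in RISP_WT. In the chimeras its range was 4.83 to 11.3 CPM in the knockout and 72.7 to 87.7 CPM in the control, so every knockout library lay far below every control. The 11.3 CPM was RISP_Chimera_KO replicate 2, while replicates 1, 3 and 4 read 4.88, 4.83 and 6.00 CPM.

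As the mean of log2(CPM + 0.5) over the genes, the level of the 35 genes was 5.59 ± 0.09 (SD, n = 4) in RISP_WT, 5.92 ± 0.27 (n = 4) in RISP_KO, 1.91 ± 0.15 (n = 4) in RISP_Chimera_WT and 2.68 ± 0.37 (n = 4) in RISP_Chimera_KO. In vitro it was 5.79 ± 0.12 (n = 3) in Untreated, 5.16 ± 0.24 in 3-NPA, 4.27 ± 0.30 in Piericidin and 3.76 ± 0.64 in AntimycinA. The 35 genes took 0.184 to 0.211% of all counts in RISP_WT and 0.0168 to 0.0211% in RISP_Chimera_WT. Age, chimerism and kit cannot be told apart in that gap. The heat map of single libraries shows the 3 tables side by side, each gene set to the control mean of its own table.

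**Figure D1:**
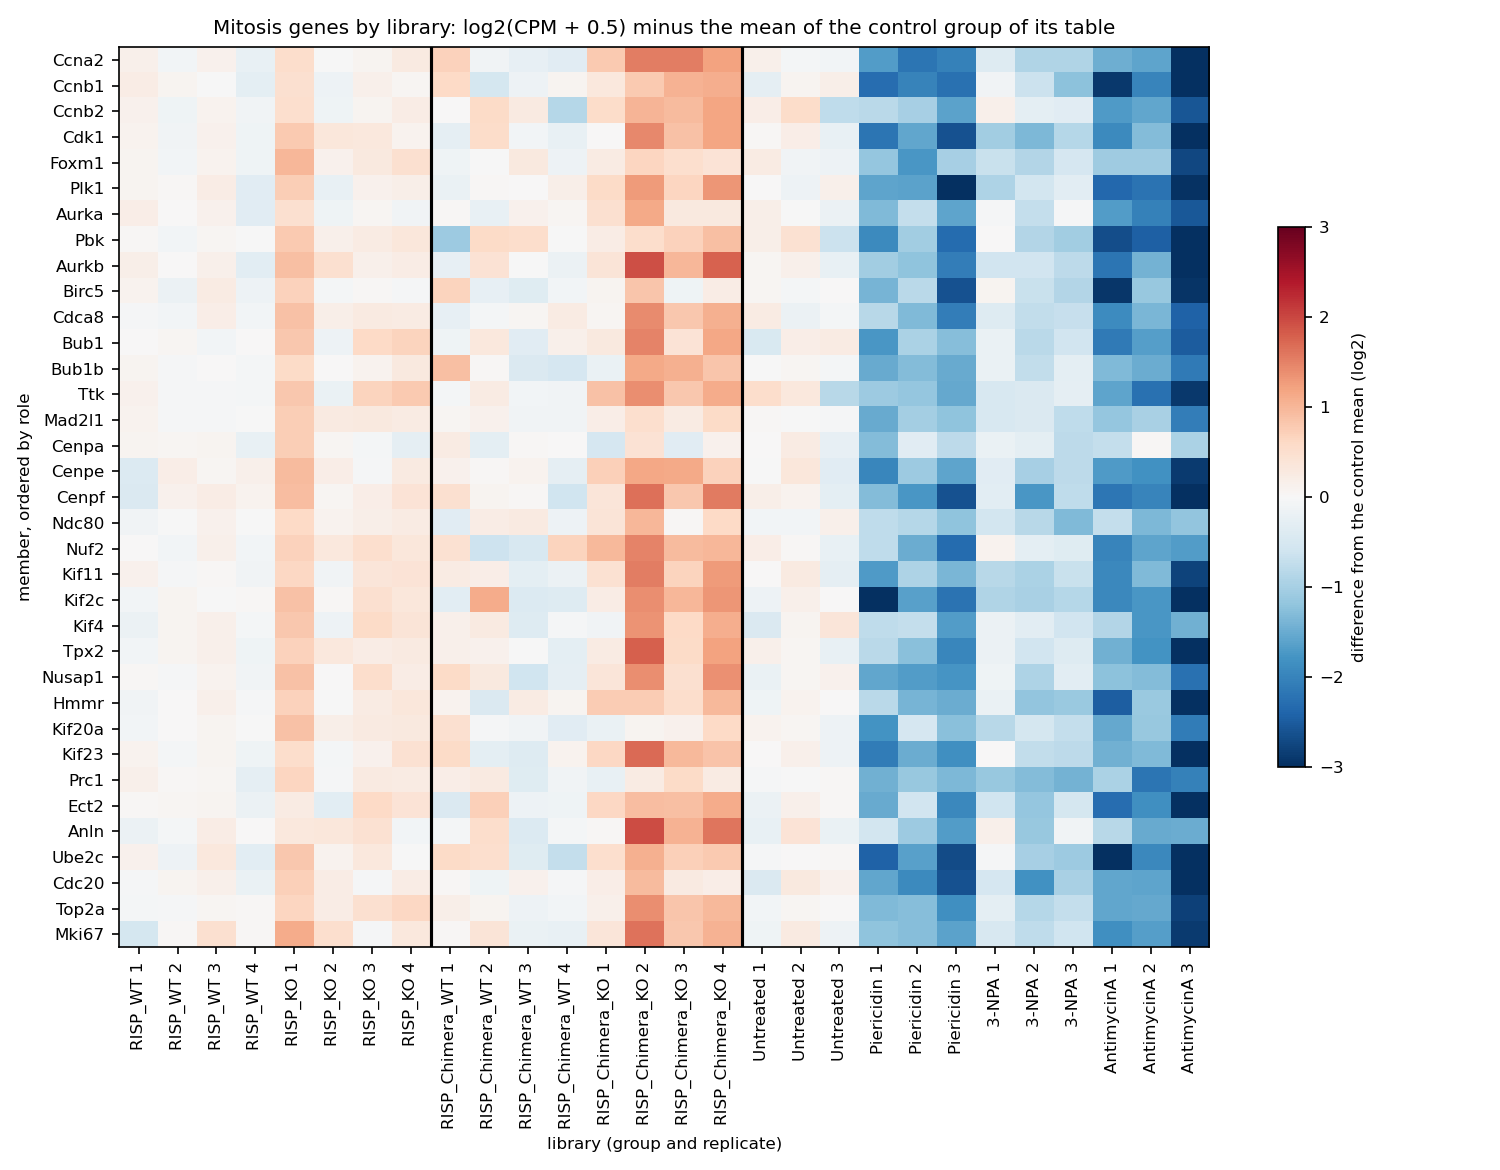
Heat map of the 35 mitosis genes (rows, by role) in 28 libraries (columns), as log2(CPM + 0.5) minus the mean of RISP_WT, RISP_Chimera_WT or Untreated, whichever is the control of the table; black lines part the tables. RISP_KO replicate 1 is the highest library of its table in 33 rows and RISP_Chimera_KO replicate 2 in 25, and AntimycinA replicate 3 is the lowest in 28.

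In RISP_KO cells of 3-week-old mice, 2 of the 35 genes rose and none fell. Over all 13832 genes tested, 4.78% were called higher and 5.08% lower (edgeR quasi-likelihood test, Benjamini-Hochberg adjusted p under 0.05), so 2 of 35 is close to the background. All 35 log2 fold changes were above 0, with a median of 0.38 against 0.00 over all genes, and 19 genes had an unadjusted p under 0.05, as did 3521 of the 13832 genes tested. DESeq2 called 11 of the 35 and 15% of all genes. Higher in every RISP_KO library than in any RISP_WT library were 7 of the 35 genes, against 7.89% of all genes.

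The gene with the smallest p was Top2a (chromosome 11, 98992943 to 99024189, minus strand, mm10), the topoisomerase that untangles sister DNA before it is pulled apart. It read 325, 241, 291 and 318 CPM in RISP_KO replicates 1 to 4 against 198, 205, 218 and 212 CPM in RISP_WT. The groups did not overlap, and the log2 fold change was 0.50 ± 0.10 (SE, edgeR adjusted p = 0.00959). Nuf2 (chromosome 1, 169497934 to 169531464, minus strand), a subunit of the Ndc80 complex that grips microtubules at the kinetochore, read 49.2, 38.0, 43.3 and 38.0 CPM in RISP_KO against 30.3, 28.4, 33.6 and 28.7 CPM in RISP_WT. Its log2 fold change was 0.48 ± 0.12 (edgeR adjusted p = 0.0261), and again no knockout library reached down to a control.

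The other role groups gave values short of the threshold. Their smallest p belonged to the checkpoint protein Mad2l1 (log2 fold change 0.40 ± 0.12, edgeR adjusted p = 0.0595), the Aurora A activator Tpx2 (0.38 ± 0.12, 0.0722), the central spindle kinesin Kif20a (0.44 ± 0.15, 0.0886) and Foxm1 (0.52 ± 0.18, 0.0891). In the remaining groups it belonged to the kinase Pbk (0.40 ± 0.14, 0.0978), the passenger kinase Aurkb (0.46 ± 0.17, 0.121) and Cdc20, the activator of the anaphase-promoting complex (0.31 ± 0.15, 0.226). The checkpoint kinase Ttk had the largest log2 fold change, 0.59 ± 0.21 (edgeR adjusted p = 0.103), and Aurka, the Aurora kinase of the spindle poles, the smallest, 0.09 ± 0.16 (0.774). Aurka read 51.7, 33.8, 38.4 and 34.4 CPM in RISP_KO against 42.1, 37.3, 40.2 and 29.2 CPM in RISP_WT, so only replicate 1 stood above the control range.

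RISP_KO replicate 1 was the highest library of its table for 33 of the 35 genes. Without it, 2 of 35 were still called, 32 log2 fold changes were above 0 and the median was 0.23. The number called was 8 without RISP_KO replicate 2, 4 without RISP_KO replicate 4, and 1 without RISP_KO replicate 3 or without RISP_WT replicate 1, 2 or 4. In each of those last 4 fits Nuf2 was lost and Top2a was kept. Among markers of other cells, the summed natural killer cell list read 49.4 to 66.9 CPM in RISP_KO against 10.5 to 15.9 CPM in RISP_WT (2 of 5 tested genes called higher, with 1 and 2 of the 7 listed genes at 0 in all RISP_WT and all RISP_KO libraries), and the summed monocyte and macrophage list 6.68 to 12.0 against 15.8 to 46.0 CPM (4 of 8 called lower). Sums of the plasma cell list (Jchain, Sdc1, Mzb1, Xbp1, Prdm1, Irf4 and Tnfrsf17) were also apart. They were 456 to 525 CPM in RISP_KO and 271 to 328 CPM in RISP_WT. Whether Treg cells themselves carried these transcripts was not tested. Apart as well were the sums of immature thymocytes (54.2 to 89.9 and 99.6 to 114 CPM), epithelial cells (18.1 to 28.8 and 34.2 to 45.8 CPM) and dendritic cells (3.27 to 5.95 and 6.02 to 7.19 CPM). B cell sums nearly met, at 587 to 777.0 CPM in RISP_KO and 777.2 to 958 CPM in RISP_WT. Which cells the RNA of these sums came from was not tested, nor was its part in the mitosis values.

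**Figure D2:**
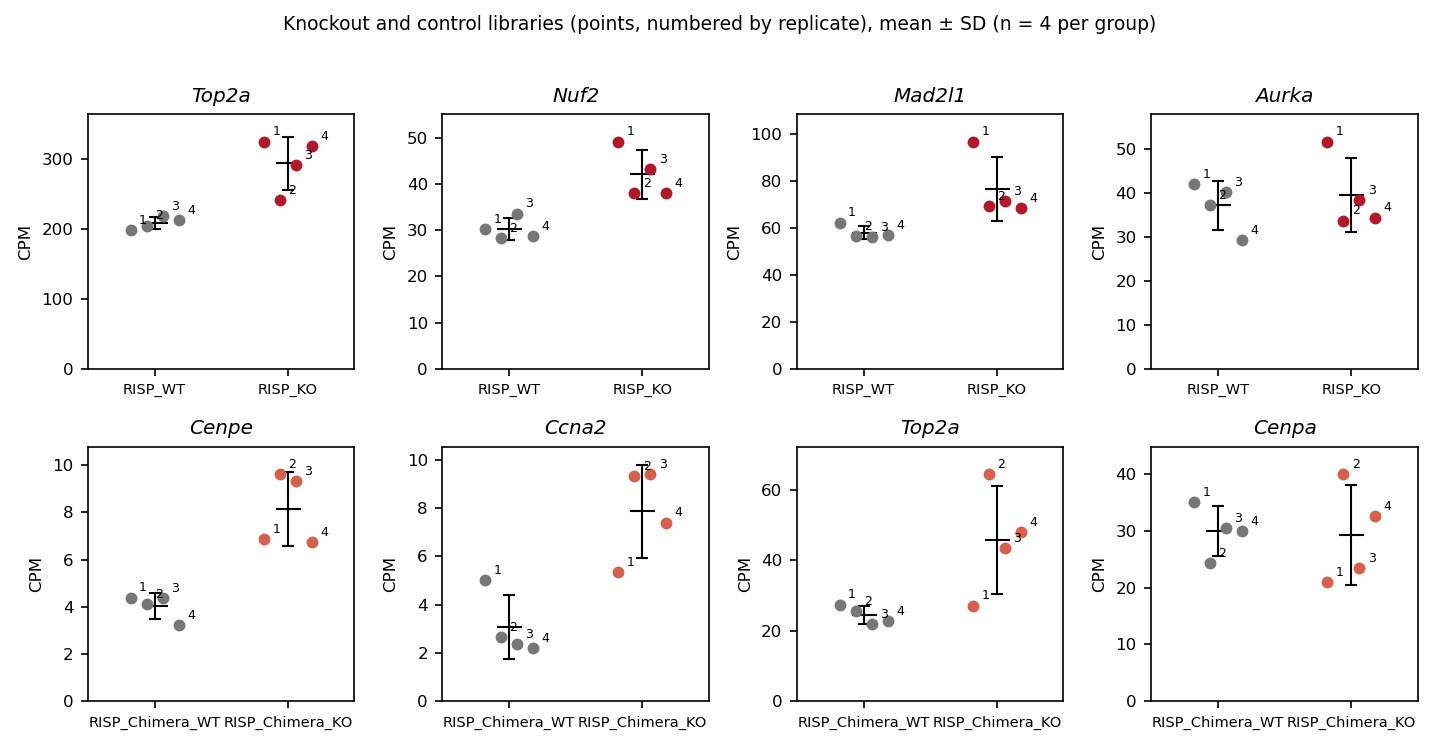
CPM of named genes in single libraries (points, numbered by replicate) with the group mean and SD (n = 4); the top row is RISP_WT and RISP_KO, the bottom row RISP_Chimera_WT and RISP_Chimera_KO, each panel with its own axis from 0. Top2a and Nuf2 are apart in the top row, Aurka overlaps, and in the bottom row Cenpe and Ccna2 are apart while Cenpa overlaps.

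In the chimeras, 1 of the 35 genes, Cenpe, was called higher in RISP_Chimera_KO and none lower, against 0.167% of all 14399 genes called higher and 0.542% lower. Of the 35 log2 fold changes, 34 were above 0, with a median of 1.01 against 0.00 over all genes, and 27 genes had an unadjusted p under 0.05, as did 1859 of the 14399 genes tested. DESeq2 called 15 of the 35 and 3.1% of all genes. Every RISP_Chimera_KO library was above every RISP_Chimera_WT library for 12 of the 35 genes, against 3.39% of all genes.

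Cenpe (chromosome 3, 135212563 to 135273540, plus strand) encodes the kinetochore motor that carries chromosomes toward the spindle equator. It read 6.87, 9.63, 9.34 and 6.75 CPM in RISP_Chimera_KO replicates 1 to 4 against 4.39, 4.11, 4.38 and 3.23 CPM in RISP_Chimera_WT. All knockout libraries were above all controls, with a log2 fold change of 1.02 ± 0.20 (edgeR adjusted p = 0.0393). Ccna2 (chromosome 3, 36564866 to 36572150, minus strand), the gene of cyclin A2, read 5.34, 9.33, 9.41 and 7.39 CPM against 5.02, 2.66, 2.37 and 2.20 CPM. Its groups did not overlap either, although the lowest knockout library and the highest control nearly met, and its log2 fold change of 1.37 ± 0.29 missed the threshold (adjusted p = 0.0526).

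Just short of the threshold also lay Mki67, which coats mitotic chromosomes (1.03 ± 0.22, adjusted p = 0.0604), Kif11, the motor that pushes spindle poles apart (1.10 ± 0.25, 0.0711), and the kinase Plk1 (1.14 ± 0.26, 0.0722). Ttk (1.46 ± 0.36, 0.0918), Aurkb (1.76 ± 0.43, 0.0934), the cytokinesis kinesin Kif23 (1.17 ± 0.31, 0.126) and Ube2c, the ubiquitin-conjugating enzyme of the anaphase-promoting complex (0.79 ± 0.34, 0.351), had the smallest p of their groups. The largest log2 fold change, 2.04 ± 0.65 (adjusted p = 0.199), belonged to Anln, a scaffold of the contractile ring, which read 0.398, 2.90, 1.32 and 2.16 CPM against 0.341, 0.780, 0.164 and 0.343 CPM. Cenpa, the histone variant that marks centromeres, went against the others with -0.04 ± 0.18 (0.967), from 20.9, 40.1, 23.4 and 32.6 CPM against 35.1, 24.4, 30.5 and 30.0 CPM.

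RISP_Chimera_KO replicate 2 was the highest library of its table for 25 of the 35 genes and replicate 4 for 8. The same libraries had the highest summed monocyte and macrophage markers, 69.9 and 80.9 CPM, against 27.5 and 27.4 CPM in RISP_Chimera_KO replicates 1 and 3 and 23.1 to 54.7 CPM in RISP_Chimera_WT. None of the 10 markers was at 0 in all libraries of a chimera group, and 0 of 8 tested were called. Without replicates 2 and 4 together, 0 of the 35 genes were called by edgeR, the median was 0.59, 32 log2 fold changes were above 0 and the value of Cenpe was 1.01 (adjusted p = 0.0604). Left out singly, RISP_Chimera_KO replicate 2 or 3 or RISP_Chimera_WT replicate 2, 3 or 4 also left 0 calls, and RISP_Chimera_KO replicate 1 left 4, Cenpe not among them. Without RISP_Chimera_WT replicate 1 another gene was called and Cenpe was not. The summed natural killer list lay between 16 and 21.8 CPM in the knockout and between 9.11 and 14.2 CPM in the control, and the epithelial list between 2.19 and 4.20 CPM and between 7.17 and 9.25 CPM. Also apart were immature thymocyte sums (144 to 150 CPM in the knockout, 112 to 140 CPM in the control) and dendritic cell sums (4.84 to 8.50 and 3.90 to 4.81 CPM). The part of such RNA in the members' values was not tested.

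The difference of the knockout effects (chimeras minus 3-week-old mice, fitted over all 16 libraries) was called for 1 of the 35 genes, against 1.23% of all 15580 genes called higher and 2.04% lower. Ccna2 had a difference of 1.15 ± 0.30 (log2, edgeR adjusted p = 0.0394). The median over the 35 genes was 0.59, and 30 were above 0. Without RISP_Chimera_KO replicates 2 and 4 it was 0.18, with 24 above 0 and 0 called. Ccna2 also lost its call without any of 12 single libraries: RISP_KO replicate 2, 3 or 4, RISP_WT replicate 1, 2 or 3, RISP_Chimera_KO replicate 2, 3 or 4, or RISP_Chimera_WT replicate 2, 3 or 4. The number called was 2 without RISP_KO replicate 1 and 3 without RISP_Chimera_KO replicate 1. Age, chimerism and library kit differ together with the setting and cannot be told apart.

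In vitro, nearly all mitosis genes fell with antimycin A and with piericidin, and 8 fell with 3-NPA. The 3 comparisons share the Untreated libraries. Antimycin A lowered 34 of the 35 genes, against 8.5% of all 11689 genes called lower and 6.5% higher, with a median log2 fold change of -1.99 (3.96-fold lower) against 0.02 over all genes. Piericidin lowered all 35, against 7.93% of all genes called lower and 5.62% higher, with a median of -1.41 (2.66-fold lower). 3-NPA lowered 8, against 1.87% of all genes called lower and 1.35% higher, with a median of -0.62 (1.53-fold lower) and 35 of 35 values under 0. Every treated library was below every Untreated library for 34 genes with antimycin A (16% of all genes), 35 with piericidin (15.2%) and 20 with 3-NPA (11.4%).

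**Figure D3:**
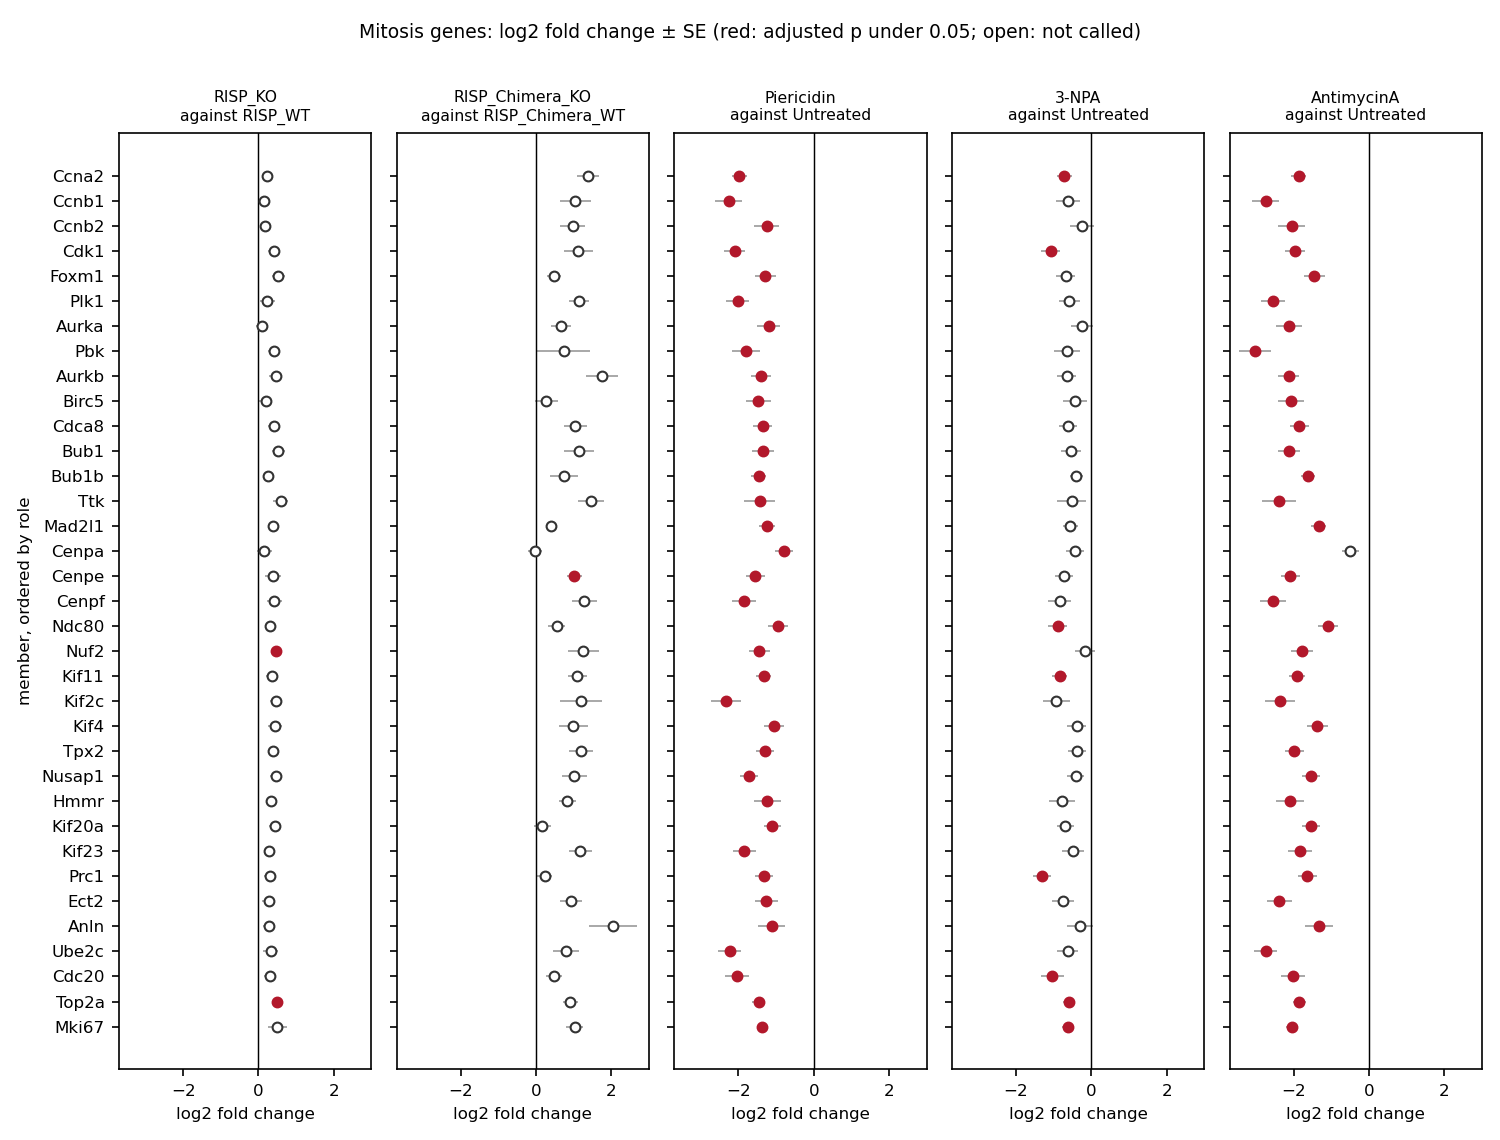
Log2 fold change (points) with its SE (bars) of the 35 mitosis genes, by role from top to bottom, in 5 comparisons with a control; red points have an edgeR adjusted p under 0.05 and open points do not. The points lie right of 0 in both knockout panels except Cenpa in the chimeras (-0.04), with 2 and 1 called, and left of 0 in the inhibitor panels, with 35, 8 and 34 called.

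Entry genes fell in 5 of 5 with piericidin and with antimycin A and in 2 of 5, Ccna2 and Cdk1, with 3-NPA. Ccna2 read 171, 146 and 144 CPM in Untreated, 47.5, 33.0 and 37.2 CPM in Piericidin, 118, 81.3 and 81.9 CPM in 3-NPA and 55.4, 51.2 and 18.5 CPM in AntimycinA. Each inhibitor group lay wholly below Untreated, with log2 fold changes of -1.97 ± 0.21 (adjusted p = 2.09e-08), -0.72 ± 0.19 (0.0316) and -1.87 ± 0.21 (1.47e-08). Cdk1 (chromosome 10, 69336635 to 69352938, minus strand), the master kinase of mitosis, read 83.8, 94.0 and 70.9 CPM in Untreated and fell to 17.7, 27.5 and 13.1 CPM with piericidin, 39.9, 32.0 and 44.9 CPM with 3-NPA and 21.4, 33.2 and 8.16 CPM with antimycin A. Its log2 fold changes were -2.10 ± 0.27, -1.08 ± 0.25 and -1.96 ± 0.27, all called. Ccnb1 of cyclin B1 was among the lowest values with -2.26 ± 0.35 for piericidin and -2.75 ± 0.37 for antimycin A, both called, against -0.61 ± 0.32 for 3-NPA, not called (adjusted p = 0.326).

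Mitotic kinases and the passenger complex were called with piericidin (6 of 6) and antimycin A (6 of 6) and not with 3-NPA (0 of 6). Plk1 (chromosome 7, 122159437 to 122169875, plus strand) read 41.1, 36.6 and 45.1 CPM in Untreated, 13.2, 13.0 and 4.27 CPM in Piericidin, 21.1, 27.6 and 32.7 CPM in 3-NPA and 7.5, 8.44 and 4.82 CPM in AntimycinA. No treated library reached the Untreated range, yet 3-NPA gave only -0.59 ± 0.28 (adjusted p = 0.284), against -2.02 ± 0.31 (1.09e-05) and -2.54 ± 0.32 (1.8e-07). Pbk, a kinase active in mitotic cells, had the largest fall of all 35 with antimycin A, from 31.1, 38.4 and 17.5 CPM to 3.93, 4.66 and 1.85 CPM (-3.02 ± 0.42, adjusted p = 9.55e-07).

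Checkpoint genes fell with piericidin and antimycin A (4 of 4 in each), Bub1b, which keeps the anaphase-promoting complex in check, with the smallest p. It read 78.3, 82.0 and 76.0 CPM in Untreated, 27.2, 31.5 and 27.1 CPM in Piericidin and 31.1, 27.6 and 17.8 CPM in AntimycinA (log2 fold changes of -1.46 ± 0.19 and -1.62 ± 0.19). All treated libraries of both inhibitors were under 32 CPM, far below every control. Among kinetochore genes, Cenpe fell by 1.55 ± 0.25 and 2.09 ± 0.26 on the log2 scale with the same inhibitors. With 3-NPA, Ndc80, the microtubule-binding core of the kinetochore, fell by 0.90 ± 0.26 (adjusted p = 0.0444), while Nuf2, its partner in the same complex, had the value nearest to 0 (-0.18 ± 0.27, 0.807). DESeq2 kept the Ndc80 call. It was lost with a filter of 1 CPM, with no filter, and without 3-NPA replicate 2 or 3 or any single Untreated replicate. The difference between Ndc80 and Nuf2 was not tested.

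Cenpa moved least of the 35 with both piericidin and antimycin A. It read 49.8, 58.8 and 42.0 CPM in Untreated, 19.9, 39.1 and 28.7 CPM in Piericidin, 43.3, 40.5 and 28.7 CPM in 3-NPA and 30.0, 50.6 and 25.6 CPM in AntimycinA. AntimycinA replicate 2 lay inside the Untreated range, and the log2 fold change of -0.49 ± 0.23 was not called (adjusted p = 0.165). With piericidin it fell by 0.78 ± 0.24 (0.0225), a call that was lost without Piericidin replicate 1 or 3 or Untreated replicate 1 or 2.

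Spindle motors and assembly factors fell in 6 of 6 with piericidin and with antimycin A and in 1 of 6, Kif11, with 3-NPA. Kif11 (chromosome 19, 37376403 to 37421859, plus strand) read 124, 148 and 101 CPM in Untreated, 37.2, 64.1 and 47.0 CPM in Piericidin, 68.2, 63.3 and 76.8 CPM in 3-NPA and 31.8, 48.9 and 17.4 CPM in AntimycinA. The log2 fold changes were -1.33 ± 0.21, -0.84 ± 0.20 and -1.90 ± 0.21, with no overlap with Untreated in any group. Kif2c, which strips microtubule ends, had the largest fall with piericidin, -2.33 ± 0.40 (adjusted p = 6.25e-05).

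Central spindle and cytokinesis genes gave the largest fall with 3-NPA, in Prc1. Prc1 (chromosome 7, 80294450 to 80316259, plus strand), which bundles the microtubules between the separating chromosomes, read 58.6, 59.7 and 61.9 CPM in Untreated, 21.7, 27.2 and 23.2 CPM in Piericidin, 26.9, 23.9 and 22.2 CPM in 3-NPA and 31.1, 12.8 and 14.5 CPM in AntimycinA. The 3 inhibitor groups overlapped each other and lay at less than 32 CPM, below all control libraries. The log2 fold changes were -1.32 ± 0.24 (adjusted p = 0.000115), -1.30 ± 0.24 (0.00105) and -1.64 ± 0.24 (3.19e-06). Ect2, the exchange factor that starts furrowing, fell with antimycin A by 2.39 ± 0.33 (1e-06) and was not called with 3-NPA (-0.75 ± 0.29).

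The partners of the anaphase-promoting complex (only Ube2c and Cdc20) had the deepest median of the 9 role groups with piericidin (-2.13). With antimycin A the mitotic kinases (only Plk1, Aurka and Pbk) had it (-2.54). Medians of so few genes rest on single genes, and the role groups were not tested against each other. Ube2c (chromosome 2, 164769898 to 164778822, plus strand) read 57.9, 60.0 and 60.9 CPM in Untreated, 10.7, 18.8 and 8.84 CPM in Piericidin, 58.0, 29.8 and 27.9 CPM in 3-NPA and 6.07, 15.1 and 4.45 CPM in AntimycinA. 3-NPA replicate 1 sat inside the control range and the other libraries well below it. The 3-NPA value of -0.63 ± 0.27 was not called (adjusted p = 0.225). Piericidin and antimycin A gave -2.23 ± 0.30 and -2.75 ± 0.32, both called. Cdc20 fell with 3-NPA too, by 1.04 ± 0.30 on the log2 scale (0.0444).

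The chromosome structure genes Top2a and Mki67 were called in all 3 comparisons. Mki67 (chromosome 7, 135689788 to 135716379, minus strand) read 409, 533 and 403 CPM in Untreated, 194, 182 and 147 CPM in Piericidin, 318, 263 and 292 CPM in 3-NPA and 125, 140 and 60.1 CPM in AntimycinA. The groups did not overlap and ran in the order Untreated, 3-NPA, Piericidin, AntimycinA, with log2 fold changes of -0.62 ± 0.15 (adjusted p = 0.0104), -1.37 ± 0.15 (4.73e-08) and -2.04 ± 0.16 (1.41e-12) against Untreated. Top2a fell by 0.60 ± 0.16, 1.46 ± 0.17 and 1.85 ± 0.17.

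**Figure D4:**
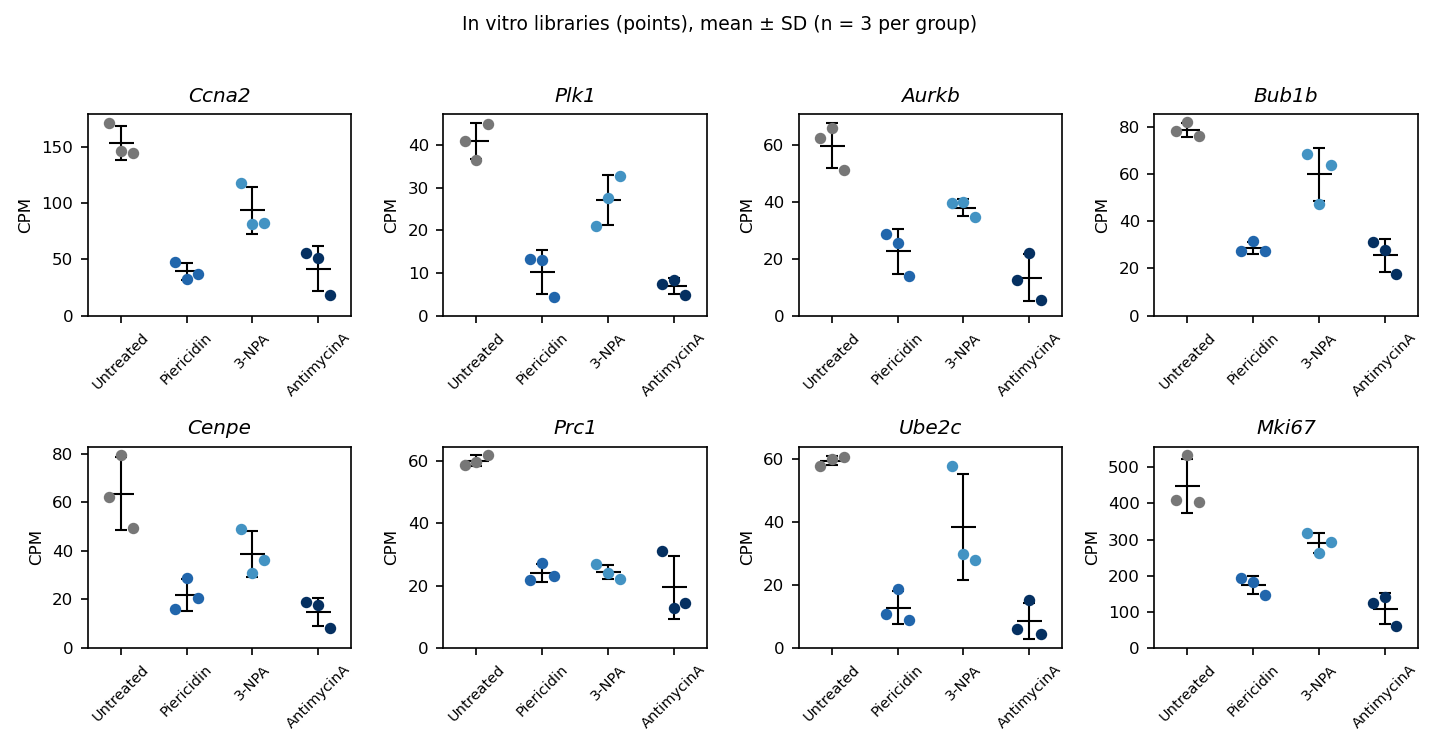
CPM of Ccna2, Plk1, Aurkb, Bub1b, Cenpe, Prc1, Ube2c and Mki67 in single in vitro libraries (points) with the group mean and SD (n = 3), each panel with its own axis from 0. Piericidin and AntimycinA points lie below all Untreated points in every panel, and all 3-NPA points lie above them in every panel but Prc1, where the 3 inhibitor groups overlap.

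The number of genes called with 3-NPA depended on the test. Called with 3-NPA were Prc1, Cdk1, Mki67, Kif11, Top2a, Ccna2, Ndc80 and Cdc20. DESeq2 called 2 of these 8 and no other member, and a fit of 3-NPA and Untreated alone called 15. The number was 1 without 3-NPA replicate 2 or Untreated replicate 2, 3 without 3-NPA replicate 3, and 4 without Untreated replicate 1 or 3. AntimycinA replicate 3 was the lowest library of the table for 28 of the 35 genes, and without it 33 were called with a median of -1.64. The smallest count for piericidin, 26 genes, came without Piericidin replicate 3. Among markers of other cells, the monocyte and macrophage sum was 18.7 to 19.6 CPM in Untreated and 15.2 to 23.6 CPM over the inhibitor libraries. The B cell sum read 490 to 549 CPM in Untreated, 274 to 291 in Piericidin, 316 to 461 in 3-NPA and 345 to 438 CPM in AntimycinA. The plasma cell sum read 860 to 879 CPM in Untreated, 756 to 826 in Piericidin, 738 to 821 in 3-NPA and 732 to 794 CPM in AntimycinA. Many listed genes had no counts in any Untreated library: 4 of 10 for B cells, 3 of 7 for plasma cells and 7 of 10 for monocytes and macrophages. For B cells and plasma cells these numbers were 3 and 3 in Piericidin, and 3 and 2 in both 3-NPA and AntimycinA. Each sum therefore rests on the remaining genes of its list. The B cell and plasma cell sums were apart from Untreated in each inhibitor group. Which cells this RNA came from was not tested, nor was its part in the mitosis values.

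The inhibitors were also compared with each other. Antimycin A against 3-NPA gave 28 of 35 genes lower (of all genes, 2.38% were lower and 1.6% higher), with a median of -1.35 and 28 genes without overlap between the groups (10.4% of all). Piericidin against 3-NPA gave 13 lower (of all genes, 2.43% lower and 1.87% higher), with a median of -0.91 and 23 genes without overlap (11% of all). The number called was 7 without 3-NPA replicate 1 or 8 without Piericidin replicate 3. Antimycin A against piericidin gave 1 lower (of all genes, 0.299% lower and 0.436% higher), with a median of -0.48, 29 of 35 values under 0, 12 with an unadjusted p under 0.05 and 4 without overlap (7.52% of all). That gene was Mki67 (-0.67 ± 0.16, adjusted p = 0.0272), which neither DESeq2 nor a fit of the 2 groups alone called. It was lost without AntimycinA replicate 3 or without Piericidin replicate 1 or 2, and 3 genes were called without AntimycinA replicate 2. The doses differ between the compounds, 500 µM for 3-NPA and 1 µM for the others, so these differences hold at those doses only.

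Among single genes, Ube2c separated antimycin A from 3-NPA by -2.12 ± 0.32 (adjusted p = 6.06e-05) and piericidin from 3-NPA by -1.60 ± 0.31 (0.00124). The microtubule-bundling spindle protein Nusap1 separated piericidin from 3-NPA by -1.29 ± 0.24 (0.000915). Prc1 and Cenpa were not called in either, with -0.33 ± 0.25 and -0.06 ± 0.24 for antimycin A and -0.02 ± 0.25 and -0.35 ± 0.24 for piericidin. Between antimycin A and piericidin, Pbk (-1.22 ± 0.45, 0.262) and Ect2 (-1.12 ± 0.35, 0.142) had the values farthest from 0, and neither was called.

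Of 74 further mitosis genes, 52 were lower and 1 higher with piericidin (median -1.23), 53 lower and 2 higher with antimycin A (-1.40), and 5 lower and 1 higher with 3-NPA (-0.53). For this and the lists that follow, the shares of all genes called lower were 7.93%, 8.5% and 1.87% in that order, those called higher 5.62%, 6.5% and 1.35%, and the medians over all genes 0.01, 0.02 and -0.01. The exceptions with antimycin A were Psrc1, a microtubule-binding protein, and Gtse1, which is made in G2 and binds p53. Psrc1 read 3.56, 10.5 and 12.7 CPM in Untreated, 5.89, 7.61 and 11.0 CPM in Piericidin, 40.2, 16.6 and 27.9 CPM in 3-NPA and 38.2, 27.6 and 36.0 CPM in AntimycinA. It rose by 1.66 ± 0.34 with 3-NPA (adjusted p = 0.00351) and by 1.92 ± 0.34 with antimycin A (6.76e-05), with no overlap with Untreated, and read -0.12 ± 0.38 with piericidin. Gtse1 rose by 0.71 ± 0.21 with antimycin A (0.0169) and fell by 0.90 ± 0.23 with piericidin (0.00623). The condensin subunit Smc4 was the gene higher with piericidin (0.21).

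In the knockouts the same list held 16 higher and 1 lower, Cdc25b (-0.69), in RISP_KO, with a median of 0.34, and 0 called of 72 tested in RISP_Chimera_KO, with a median of 0.50. For this and the lists that follow, 4.78% of all genes were called higher and 5.08% lower in RISP_KO. In RISP_Chimera_KO these shares were 0.167% and 0.542%, and the medians over all genes were 0.00 in both. Psrc1 read 17.4, 7.85, 10.1 and 10.9 CPM in RISP_KO against 2.35, 3.15, 4.57 and 3.72 CPM in RISP_WT, a rise of 1.75 ± 0.28 (adjusted p = 0.00324). The cohesin protector Sgo2a rose by 0.75 ± 0.14 (0.00665). In the chimeras the smallest p belonged to Ncapg2, a condensin II subunit (0.82 ± 0.19, 0.0679).

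Genes of S phase, a list of 25, fell alongside: 24 with piericidin (median -0.91), 10 with 3-NPA (-0.54) and 25 with antimycin A (-1.27). Lig1, the ligase of lagging strands, fell by 1.16 ± 0.12, 0.70 ± 0.11 and 1.59 ± 0.12. In RISP_KO 8 of the 25 rose (median 0.35), led by the helicase subunit Mcm2 (0.53 ± 0.10, adjusted p = 0.00656), and in RISP_Chimera_KO 1 rose, Lig1 (0.51 ± 0.10, 0.0421), with a median of 0.17.

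Upstream regulators were less uniform. Of 16 genes of the DREAM, E2F and MuvB list, 8 fell and 2 rose with antimycin A, 6 fell and 1 rose with piericidin, and 1 fell and 2 rose with 3-NPA. The repressor-type E2f8 fell by 2.31 ± 0.31 with antimycin A and 1.61 ± 0.30 with piericidin. Rb1, the retinoblastoma protein that holds E2F in check, rose by 0.60 and 0.47 with the same inhibitors. It also rose with 3-NPA, by 0.56 ± 0.13 (edgeR adjusted p = 0.00771). The other gene of this list higher with 3-NPA was Tfdp2 (0.90 ± 0.19, 0.00461). In RISP_KO, 5 rose and 2 fell, the activator E2f1 among the former (1.15 ± 0.28, adjusted p = 0.0265), although RISP_KO replicate 1, with 12.6 CPM, lay inside the RISP_WT range of 8.15 to 13.6 CPM. In RISP_Chimera_KO, Rb1 rose by 0.44 ± 0.08 (0.0333). Of the 10 G1 cyclins and kinases, 7 fell with antimycin A, 5 with piericidin and 2 with 3-NPA, Ccne1 of cyclin E1 by 1.77 ± 0.26 and 2.03 ± 0.27 with antimycin A and piericidin. Myc rose in RISP_KO by 0.62 ± 0.14 (0.0215), and no gene of that list was called in the chimeras. Of 16 subunits of the anaphase-promoting complex itself, 4 fell with antimycin A (median -0.16), 3 with piericidin (-0.22) and 0 with 3-NPA (-0.15). In RISP_KO 1 was called higher (median 0.07), Anapc5 (0.31 ± 0.08), which is close to the share over all genes.

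Cdkn1a, which encodes the CDK inhibitor p21, did not follow the order of the mitosis genes. It read 20.7, 30.2 and 37.8 CPM in Untreated, 19.9, 14.5 and 18.9 CPM in Piericidin, 95.5, 91.6 and 81.9 CPM in 3-NPA and 112, 81.2 and 80.5 CPM in AntimycinA. It rose by 1.60 ± 0.19 with 3-NPA (adjusted p = 3.81e-07) and by 1.63 ± 0.19 with antimycin A (3.66e-08), and fell by 0.73 ± 0.22 with piericidin (0.0183). Antimycin A and piericidin differed by 2.36 ± 0.20 in this gene (edgeR adjusted p = 4.94e-11). Of the 35 mitosis genes, 1 was called lower with antimycin A than with piericidin, with a median of -0.48 and 29 values under 0. A gene that is not called may still differ. Antimycin A and 3-NPA differed by 0.03 ± 0.18 in Cdkn1a (0.965), and 28 of the 35 were called lower with antimycin A, with a median of -1.35. Whether Cdkn1a has a part in the mitosis values, in vitro or in the knockouts, was not tested.

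In RISP_KO, Cdkn1a read 20.2, 11.3, 24.1 and 21.3 CPM against 6.03, 3.31, 4.66 and 5.59 CPM in RISP_WT. It rose by 1.97 ± 0.26 (edgeR adjusted p = 0.0011). All 35 mitosis genes had a log2 fold change above 0 in the same comparison, and 32 had one without RISP_KO replicate 1. In the chimeras Cdkn1a stood at 0.299 to 3.42 CPM in the knockout and 1.24 to 2.43 CPM in the control, with -0.45 ± 0.59 (0.802), and the difference of the knockout effects was -2.47 ± 0.65 (0.0428). Cdkn1b, the p27 inhibitor linked to quiescence, rose by 0.51 ± 0.11 with antimycin A and 0.43 ± 0.11 with piericidin, and was not called with 3-NPA or in a knockout. Cdkn1c fell in RISP_KO by 1.01 ± 0.27 (0.0391).

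**Figure D5:**
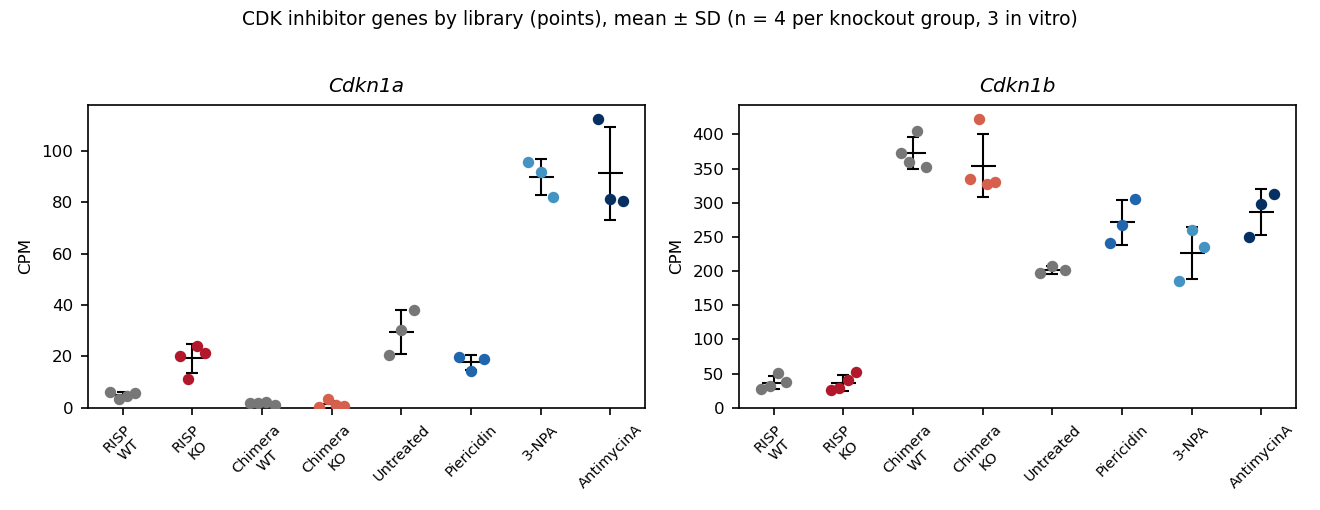
CPM of Cdkn1a and Cdkn1b in single libraries (points) with the group mean and SD (n = 4 in the knockout groups, 3 in vitro), on axes from 0; groups of different tables were normalized separately. Cdkn1a is above Untreated in all 3-NPA and AntimycinA libraries and below the lowest Untreated library in all Piericidin libraries.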

How the data were processed

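The authors deposited whole-number read counts per Ensembl gene, in 1 table for each experiment (3-week-old mice, chimeras, in vitro), beside gene coordinates and a length (per the file headers). The submitters' processing notes name bcl2fastq, TopHat, HTSeq, edgeR and mm10, with versions and strand setting not given in the sources used here, so reads of overlapping genes cannot be told apart by strand. Another table, whose 11 columns match no label, was left out.

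Analysis used edgeR 4.0.16 under R 4.3.3, with limma 3.58.1. Genes were filtered with filterByExpr by group, scaled with TMM and tested with glmQLFit and glmQLFTest. A call needed an adjusted p (Benjamini-Hochberg, over all genes tested) under 0.05. Each knockout was fitted in its own table, all 12 in vitro libraries were fitted jointly, and 16 libraries gave the difference of knockout effects. Fold changes carry a prior count of 0.125, and the SE is the fold change estimated without it, divided by the root of the F statistic. Alternatives were DESeq2 1.42.0, other scaling (RLE), other filters (none, or 1 CPM), a minimum change of 1.5-fold, a replicate block, pairwise fits, and omission of libraries. Scripts were tested on simulated counts. No library pair agreed within counting noise (smallest chi-square over degrees of freedom 3.50). By this measure RISP_Chimera_KO replicate 2 was nearest to RISP_Chimera_WT replicate 3 (16.5), against 34.2 to 49.0 for the other RISP_Chimera_KO libraries. RISP_Chimera_KO replicate 4 was about as near to RISP_Chimera_WT replicate 4 (20.2) as to RISP_Chimera_KO replicate 1 (20.9). RISP_Chimera_KO replicates 1 and 3 were nearest to each other (16.7). The cause was not tested.

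The members, the other lists and the tests were chosen with earlier results of these data known. Named in each comparison are the member with the smallest p in each of 9 role groups, called members up to 10, the extremes, and up to 2 called genes of every other list. Further genes and values given across all inhibitors (among them Ccnb1, Ect2, Gtse1, Smc4 and Rb1) were chosen after their values were seen. Gene coordinates are those of the tables (mm10), and promoters are from RefSeq (GRCm38.p6). Lengths in the tables were not used, so levels are compared within a gene only.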

Additional observations from a re-analysis of the deposited data

Results flagged for a closer look

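Dixon's criterion was applied to each of the 35 genes, and to their mean, in every group of 4 libraries, which made 144 sets. These sets share libraries and are not independent, so the share flagged cannot be weighed against the 5% that chance gives a single set. In 13 of the 144 (9.03%), a library stood apart from the others of its group. RISP_KO replicate 1 was the highest in 5 of them: Birc5 (142 CPM, the next library 89.0), Cdca8 (119, next 77.5), Mad2l1 (96.7, next 71.3), Tpx2 (95.1, next 72.2) and Kif20a (92.7, next 61.2). In RISP_WT, replicate 1 was highest for Ttk (14.6 CPM) and Mad2l1 (62.2 CPM), and replicate 4 was lowest for Cenpa (74.0 CPM). In RISP_Chimera_KO, replicate 2 was highest for Nuf2 (4.44 CPM, next 3.03) and Cdc20 (9.07 CPM, next 5.45). In RISP_Chimera_WT, replicate 1 was highest for Ccna2 (5.02 CPM, next 2.66), and replicate 2 for Ttk (1.03 CPM) and Kif2c (2.30 CPM, next 0.537).

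The knockout effect on Ccna2 differed between chimeras and 3-week-old mice by 1.15 on the log2 scale in a test of the difference itself (edgeR adjusted p = 0.0394). That call was lost when most of the single libraries were left out. It was also lost with a replicate block and without RISP_Chimera_KO replicates 2 and 4 together. Age, chimerism and library kit differ together with the setting.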

How the results depend on the processing

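Median log2 fold changes of the 35 genes kept their sign in every comparison under every alternative run. DESeq2 called 11 in RISP_KO, 15 in RISP_Chimera_KO, 2 with 3-NPA, 0 for antimycin A against piericidin and 2 for the difference of knockout effects. A minimum change of 1.5-fold left 0 in both knockouts, with 3-NPA, for the difference of knockout effects, for antimycin A against piericidin and for piericidin against 3-NPA, 8 for antimycin A against 3-NPA and 20 with piericidin. Without a filter on low counts, 7 were called in RISP_Chimera_KO 2 for antimycin A against piericidin and 19 for piericidin against 3-NPA; with a filter of 1 CPM, 2 in RISP_Chimera_KO. Fits of only the groups compared gave 15 with 3-NPA and 0 for antimycin A against piericidin. Without RISP_Chimera_KO replicates 2 and 4, 0 were called in the chimeras (median 0.59) and 0 in the difference (median 0.18). Leaving out single libraries gave 1 to 8 calls in RISP_KO, 0 to 4 in the chimeras, 1 to 7 with 3-NPA, 0 to 3 for antimycin A against piericidin, 7 to 16 for piericidin against 3-NPA and 0 to 3 for the difference. With single libraries left out, Aurka in RISP_KO changed sign to -0.066 without RISP_KO replicate 1 and was 0.15 at its smallest adjusted p. Cenpa in the chimeras changed sign to 0.10 without RISP_Chimera_KO replicate 1 and was -0.22 at its smallest adjusted p. The causes were not tested. CHR letters fell from 77.4 to 35.5% of member promoters without the 50 bases after the start.

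In the knockout tables, same-numbered libraries did not deviate together throughout (correlations -0.146 to 0.191). In vitro, these correlations were small and all between 0.00604 and 0.104. Replicate numbers are not taken as pairs in the main fits. A replicate block gave 1 call in RISP_KO (Nuf2 lost, 0.47, edgeR adjusted p = 0.0529) and 1 in the chimeras (Cenpe lost, 1.01, 0.0581, and another gene gained). It gave 1 for the difference (Ccna2 lost and another gained), 22 for piericidin against 3-NPA and 9 with 3-NPA. Each in vitro library correlated best with its own number in 3 of the 6 comparisons, a hint of pairing from the data that no label states. No alternative varied depth.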
